A study of Mus musculus with 18 samples.

Results

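Choroid plexus genes were followed through 18 cortex libraries to separate the effect of gene copy number from the presence of choroid plexus RNA in single libraries. The 10 genes, out of 55385 in the count table, were taken by symbol: Clic6 and Kcne2, which lie in the segment of chromosome 16 that is duplicated in the model, and Ttr, Folr1, Kl, Aqp1, Otx2, Slc4a5, Kcnj13 and Sostdc1, which lie elsewhere. All 10 symbols were found in the deposited counts and RPKM values. The libraries came from 6 Dp16_2xIFNRs, 6 Dp16 and 6 WT mice, each group with 3 males and 3 females aged 17.1 to 18 weeks. WT mice were C57BL/6J. Dp16 mice carry a segmental duplication of chromosome 16, used as a model of trisomy 21, which gives genes of the segment 3 copies in place of 2 in every cell. Dp16_2xIFNRs mice carry the same duplication with the interferon receptor genes at normal dosage, so that Clic6 and Kcne2 are at 3 copies in both duplication genotypes. The labels give no treatment, and whether animals were littermates is not given in the sources used here. The labels number separate samples within a group, and p-values measure the spread between these samples. The 8 genes outside the segment have the normal copy number in all groups.

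The choroid plexus is a folded epithelium inside the brain ventricles that secretes cerebrospinal fluid. Its cells hold very high levels of transthyretin RNA and carry ion channels, bicarbonate transporters and water channels on their apical and basal faces. It lies next to, but is not part of, the cortex, and some of its genes are also expressed elsewhere in the brain. Clic6 encodes a member of the chloride intracellular channel family. Kcne2 encodes a beta subunit that associates with potassium channels, including KCNQ1 in epithelia.

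Promoter windows are shown for Kcne2 and Slc4a5, which were high in the same pair of libraries although only Kcne2 is duplicated, and for Otx2, the homeobox regulator of choroid plexus identity. RefSeq windows (GRCm38.p6) were matched for 6 of the 10 genes, 10 windows in all, and are printed as the 250 bases before an annotated start in the direction of transcription. Capitals mark TAATCC or its reverse complement GGATTA, a core site of OTX homeodomain proteins, which do not overlap each other. Kcne2 has 2 windows, of which the first is shown, and Otx2 has 4, of which the 1 with a match is shown. The Kcne2 window is chr16:92292139-92292388 on the plus strand, the Slc4a5 window chr6:83237125-83237374 on the plus strand, and the Otx2 window chr14:48665110-48665359 on the minus strand.
Kcne2: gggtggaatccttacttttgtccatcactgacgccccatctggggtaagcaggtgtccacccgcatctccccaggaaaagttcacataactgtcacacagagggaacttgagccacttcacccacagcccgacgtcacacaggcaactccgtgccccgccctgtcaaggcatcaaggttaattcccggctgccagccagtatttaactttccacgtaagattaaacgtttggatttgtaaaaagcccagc
Slc4a5: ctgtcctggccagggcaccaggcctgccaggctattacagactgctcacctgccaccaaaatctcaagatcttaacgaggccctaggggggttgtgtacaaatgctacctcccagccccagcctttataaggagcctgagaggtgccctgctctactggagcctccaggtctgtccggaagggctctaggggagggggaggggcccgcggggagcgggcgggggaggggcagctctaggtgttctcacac
Otx2: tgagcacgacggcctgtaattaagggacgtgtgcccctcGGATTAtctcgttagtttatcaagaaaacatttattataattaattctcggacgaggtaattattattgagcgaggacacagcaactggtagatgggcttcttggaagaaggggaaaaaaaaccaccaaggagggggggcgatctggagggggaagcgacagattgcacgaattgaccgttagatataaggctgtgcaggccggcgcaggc
The motif occurred in 1 of the 10 windows, that of Otx2 shown here, and in 6.25% of 32851 windows of the same length. The windows of Kcne2 and Slc4a5 hold no match, which says only that these letters are absent from them.

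By position in GRCm38 (GENCODE M21), Kcne2 spans bases 92292389 to 92298129 and Clic6 bases 92485736 to 92541243 of chromosome 16, both on the plus strand and inside the segment taken from base 75540514 to base 97962622. Ttr lies on chromosome 18, Folr1 on 7, Kl on 5, Aqp1 and Slc4a5 on 6, Otx2 on 14, Kcnj13 on 1 and Sostdc1 on 12. Clic6 is overlapped on its strand by 2410124H12Rik, which had 11 counts in all libraries together. Otx2 is overlapped on its strand by Gm49154, whose part in the counts was not examined. Folr1 overlaps Anapc15, Kcnj13 overlaps Gigyf2 and Otx2 overlaps Otx2os1, each on the other strand. The strand setting of the counting is not given in the sources used here, so part of the counts of Folr1, Kcnj13 and Otx2 may belong to these partners.

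Library totals ran from 46346019 to 67281449 counts. A pair of libraries stood apart in choroid plexus RNA: Dp16 replicate 3, from a male, and WT replicate 5, from a female. Over all 18 libraries, Dp16 replicate 3 was the highest and WT replicate 5 the second highest for each of the 10 genes. Being the highest of its group in both of these libraries was true of 3.34% of the 18717 genes tested. The further condition of at least 2 times the median of the other 5 libraries of the genotype held for all 10 genes and for 57 tested genes, or 0.305%. The pair was picked with the levels of the 10 genes known, and the 57 include those of the 10 that were tested. These counts of the 10 genes are therefore a description and no test. In a separate list of 28 other choroid plexus genes, 18 were highest in both libraries and 13 met the further condition. The summed level of that list, in CPM (counts scaled to the library total by TMM), was 140 to 158 CPM in Dp16_2xIFNRs, 140 to 191 CPM in Dp16 and 103 to 175 CPM in WT, with the maxima in Dp16 replicate 3 and WT replicate 5. None of its genes was at 0 in every library and 3 were at 0 in at least 1. The pair differed in other tissue markers too: both had the lowest summed cortical neuron markers of their group, 1788 CPM in Dp16 replicate 3 and 1857 CPM in WT replicate 5. WT replicate 5 had the highest striatal sum in WT, 1160 CPM, and Dp16 replicate 3 the lowest meningeal sum in Dp16, 78.1 CPM. The part of these differences in the results was not tested. No Dp16_2xIFNRs library stood apart in choroid plexus RNA, and results are therefore given with and without the pair.

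**Figure D1:**
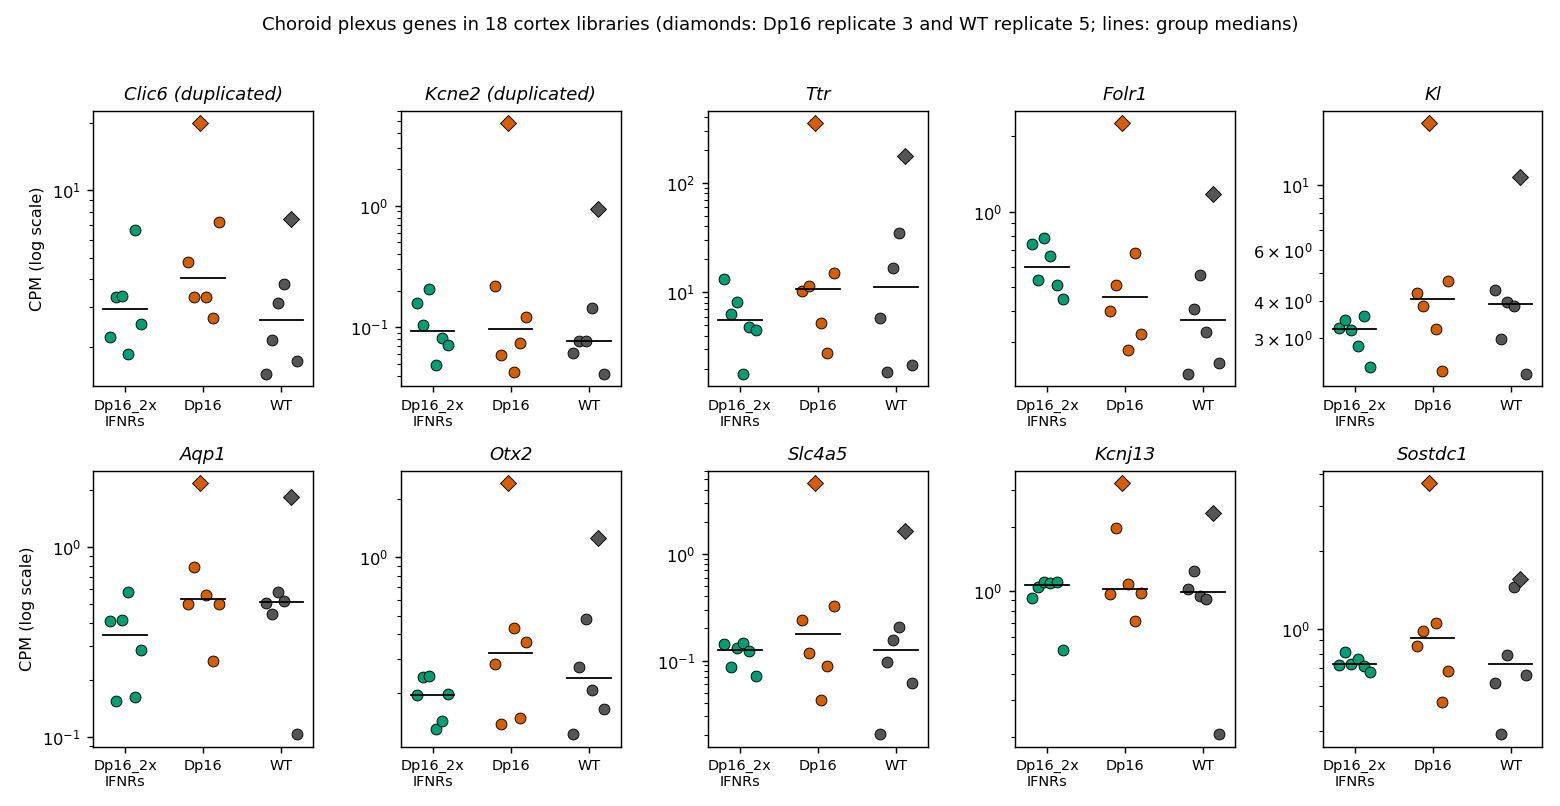
CPM (log scale) of the 10 genes in each library of Dp16_2xIFNRs, Dp16 and WT mice, with group medians as lines. The diamonds, Dp16 replicate 3 and WT replicate 5, are the top points of their groups in every panel, at 351 and 178 CPM for Ttr.

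Of the tested genes around Clic6 and Kcne2, 5 of 7 rose in both duplication genotypes. Of 8 neighbours in the segment, 7 passed the filter, all 7 were above WT in both duplication genotypes, and 5 were called higher in Dp16, where 0.636% of all tested genes were called higher, and in Dp16_2xIFNRs, where 0.737% were (edgeR's quasi-likelihood test, Benjamini-Hochberg adjusted p below 0.05). Rcan1, a calcineurin inhibitor that lies between Kcne2 and Clic6, averaged 83.9 ± 3.67 CPM in Dp16_2xIFNRs, 87.1 ± 2.85 CPM in Dp16 and 56.4 ± 3.60 CPM in WT (SD, n = 6 each). Mrps6, a mitochondrial ribosomal protein gene, averaged 15.3 ± 0.665 CPM in Dp16_2xIFNRs, 15.5 ± 0.706 CPM in Dp16 and 10.1 ± 0.894 CPM in WT. The median log2 fold change of the 7 was 0.55 in Dp16_2xIFNRs over WT and 0.56 in Dp16 over WT, against 0.00 over all genes tested in both contrasts. The rise was not particular to these neighbours. Of the 115 tested genes of the whole segment, 63 were called higher in Dp16_2xIFNRs and 68 in Dp16, with a median of 0.55 in both contrasts. Atp5o, Itsn1 and Smim11 were the other called genes. Slc5a3, the myo-inositol cotransporter, had a log2 fold change of 0.35 (SE 0.112) in Dp16_2xIFNRs and 0.36 (SE 0.113) in Dp16 over WT and was not called, nor was Runx1. Slc5a3 lies within the span of Mrps6 on the same strand, so reads of the 2 genes may be mixed. The log2 of the copy ratio of 3 to 2 is 0.58.

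**Figure D2:**
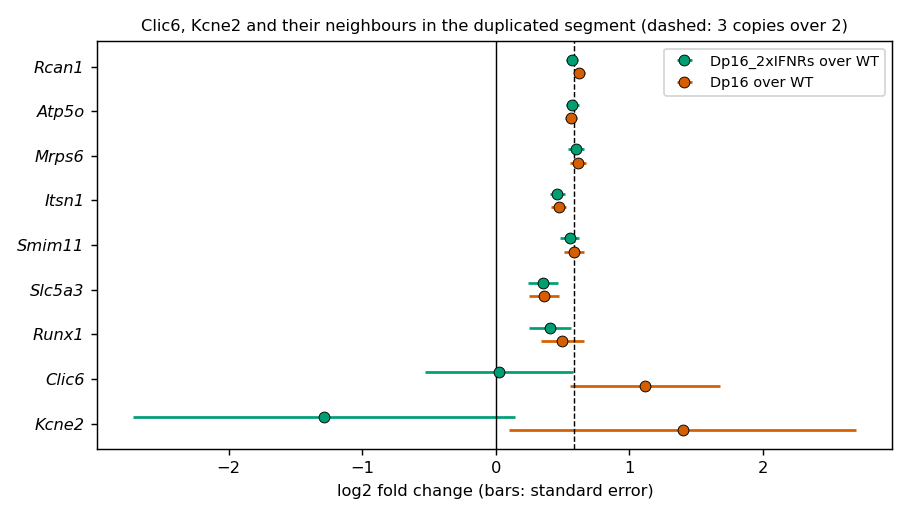
Log2 fold changes over WT with their standard errors for Clic6, Kcne2 and 7 neighbours, in Dp16_2xIFNRs (green) and Dp16 (orange). The neighbours lie between 0.35 and 0.63 with short bars, while Kcne2 lies at -1.29 and 1.40 with bars longer than 1 unit.

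Clic6 was detected in every library, and its level did not separate the genotypes. In Dp16_2xIFNRs it had a lowest value of 1.86, a median of 2.93 and a highest value of 6.62 CPM. In Dp16 these were 2.69, 4.06 and 19.9 CPM, and in WT 1.51, 2.63 and 7.42 CPM (n = 6 each). The ranges overlapped in all pairs of groups, with Dp16 replicate 3 far above all others. Behind these values were 74 to 360 counts in every library other than Dp16 replicate 3, which had 1138. The log2 fold change was 0.02 (SE 0.555, adjusted p = 0.998) in Dp16_2xIFNRs over WT and 1.12 (SE 0.561, adjusted p = 0.605) in Dp16 over WT by edgeR's quasi-likelihood test. Its 95% intervals, of 0.447 to 2.30 in fold in Dp16_2xIFNRs over WT and of 0.948 to 4.98 in Dp16 over WT, hold both no change and the copy ratio. In such bulk libraries, fewer cells of a type and less RNA per cell cannot be told apart.

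Clic6 was also compared without Dp16 replicate 3 and WT replicate 5, a setting chosen after the data were seen. Each held the highest Clic6 value of its group, so a smaller spread without them was fixed in advance and is no result. The 6 Dp16_2xIFNRs libraries averaged 3.32 ± 1.73 CPM, the 5 remaining Dp16 libraries 4.27 ± 1.81 CPM and the 5 remaining WT libraries 2.46 ± 0.971 CPM (SD). The order of the groups, Dp16 above Dp16_2xIFNRs above WT, held for these means, and neighbours in that order differed by less than the SD. The log2 fold change was 0.38 (95% interval -0.33 to 1.09) in Dp16_2xIFNRs over WT and 0.72 (95% interval -0.02 to 1.46) in Dp16 over WT. Neither was called, with adjusted p of 0.773 in Dp16_2xIFNRs and 0.644 in Dp16 in the edgeR fit.

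Kcne2 was close to the limit of detection in 16 libraries and far higher in the pair that stood apart. In Dp16_2xIFNRs its counts were 9, 6, 11, 3, 4 and 4 in replicates 1 to 6. In Dp16 they were 11, 3, 273, 2, 5 and 6, and in WT 3, 4, 4, 7, 46 and 2. Dp16 replicate 3 thus held 4.78 CPM and WT replicate 5 held 0.948 CPM, against medians of 0.0926 CPM in Dp16_2xIFNRs, 0.0976 CPM in Dp16 and 0.0774 CPM in WT. Kcne2 did not pass the filter on low counts, and its fold changes come from a fit of the 35130 genes with any count. The log2 fold change was -1.29 (SE 1.43, adjusted p = 0.825) in Dp16_2xIFNRs over WT and 1.40 (SE 1.30, adjusted p = 0.817) in Dp16 over WT. In that fit 0.498% of genes were called in Dp16_2xIFNRs over WT, and 0.379% in Dp16 over WT, 0.313% as higher and 0.0655% as lower.

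The direction of Kcne2 rested on single libraries. Leaving out Dp16 replicate 3 alone gave a log2 fold change of -1.02 in Dp16 over WT, and leaving out WT replicate 5 alone gave 3.07. Without both, the values were 0.44 (SE 0.555) in Dp16_2xIFNRs over WT and 0.37 (SE 0.587) in Dp16 over WT. Summed over the libraries other than the pair, Kcne2 had 37 counts in 6 Dp16_2xIFNRs libraries, 27 in 5 Dp16 libraries and 20 in 5 WT libraries. In CPM of the plain library totals, here without TMM, these sums are 0.111 (95% exact Poisson interval 0.0781 to 0.153) in Dp16_2xIFNRs, 0.102 (0.0672 to 0.148) in Dp16 and 0.0797 (0.0487 to 0.123) in WT. The 3 intervals, which cover counting error only, overlap, and a change by the copy ratio was not detectable at this depth.

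Among the secreted proteins, Ttr encodes transthyretin, the carrier of thyroid hormone in cerebrospinal fluid, and had the widest range. Its lowest, median and highest values were 1.80, 5.54 and 13.1 CPM in Dp16_2xIFNRs, 2.80, 10.8 and 351 CPM in Dp16 and 1.87, 11.2 and 178 CPM in WT. WT replicates 3 and 4, at 16.6 and 35.0 CPM, also lay above every Dp16_2xIFNRs library. The log2 fold change was -2.94 (SE 1.56, adjusted p = 0.518) in Dp16_2xIFNRs over WT and 0.24 (SE 1.68, adjusted p = 0.990) in Dp16 over WT, and without the pair the Dp16 value was -0.48.

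Kl encodes klotho, a membrane and secreted co-receptor for FGF23. It had 2.38, 3.21 and 3.57 CPM (lowest, median, highest) in Dp16_2xIFNRs, 2.30, 4.06 and 16.29 CPM in Dp16 and 2.26, 3.91 and 10.7 CPM in WT. The 16 libraries other than the pair lay within 2.26 to 4.68 CPM, and the groups overlapped throughout. Sostdc1, an inhibitor of BMP and Wnt signalling, had 0.679, 0.727 and 0.811 CPM in Dp16_2xIFNRs, 0.519, 0.921 and 3.67 CPM in Dp16 and 0.389, 0.727 and 1.57 CPM in WT. In Sostdc1, WT replicate 5 was only slightly above WT replicate 4, at 1.57 and 1.45 CPM, and the Dp16_2xIFNRs libraries lay closest together.

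Among membrane proteins of the epithelium, Slc4a5, an electrogenic sodium bicarbonate cotransporter of the apical membrane, was the gene most like Kcne2 (Spearman 0.752 over the 18 libraries). It had 0.0714, 0.127 and 0.146 CPM in Dp16_2xIFNRs, 0.0430, 0.179 and 4.58 CPM in Dp16 and 0.0204, 0.126 and 1.63 CPM in WT. It too failed the filter, with 1 to 16 counts outside the pair, 262 in Dp16 replicate 3 and 79 in WT replicate 5. Folr1, the folate receptor alpha that moves folate into cerebrospinal fluid, had 0.446, 0.5996 and 0.785 CPM in Dp16_2xIFNRs, 0.280, 0.455 and 2.26 CPM in Dp16 and 0.225, 0.370 and 1.18 CPM in WT. Unlike Ttr and Kl, Folr1 had its highest group median in Dp16_2xIFNRs, although no difference was called.

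Aqp1, the water channel of the apical membrane, had 0.155, 0.346 and 0.583 CPM in Dp16_2xIFNRs, 0.252, 0.532 and 2.17 CPM in Dp16 and 0.104, 0.515 and 1.83 CPM in WT. Its WT minimum was replicate 6, at 5 counts. Kcnj13, the inward rectifier channel Kir7.1, had 0.518, 1.06 and 1.10 CPM in Dp16_2xIFNRs, 0.712, 1.02 and 3.24 CPM in Dp16 and 0.207, 0.983 and 2.33 CPM in WT. Its minimum was again WT replicate 6. Otx2, the only transcription factor among the 10, had 0.130, 0.195 and 0.243 CPM in Dp16_2xIFNRs, 0.137, 0.322 and 2.40 CPM in Dp16 and 0.123, 0.240 and 1.26 CPM in WT. The groups overlapped for each of these genes.

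Per length of the gene, in the authors' RPKM values, Ttr led in WT with a median of 9.40, followed by Kcnj13 at 0.763, Kl at 0.756, Clic6 at 0.697, Sostdc1 at 0.411, Folr1 at 0.231, Aqp1 at 0.191, Otx2 at 0.0788, Kcne2 at 0.0436 and Slc4a5 at 0.0228. In Dp16 replicate 3 the level of Kcne2 reached 2.73 RPKM and that of Ttr 299 RPKM. Ranges of Kcnj13, Kl and Clic6 overlapped, so their order is not resolved.

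None of the 8 genes that passed the filter was called in any comparison by edgeR's quasi-likelihood test. In Dp16_2xIFNRs over WT, where 1.05% of 18717 tested genes were called (0.31% lower), Clic6 and Folr1 had log2 fold changes above 0 and the other 6 below. In Dp16 over WT, where 0.748% were called, all 8 were above 0, with a median of 0.49 against 0.00 over all genes tested. In Dp16_2xIFNRs over Dp16, where 0.0214% were called, all 8 were below 0, with a median of -0.996, and the unadjusted p was below 0.05 for 3 of them (Ttr, Aqp1 and Otx2) and for 410 of all 18717. In both duplication genotypes together over WT, where 1.44% were called (0.47% lower), 4 were above 0. These comparisons share libraries, and Dp16 replicate 3 enters the last 3. Without that library alone, 6 of the 8 were below 0 in Dp16 over WT, with Ttr at -1.95 and Otx2 at -0.65, so the direction rested on it. Without the pair, Ttr was below 0 and the other 7 were above, between 0.014 and 0.72. With all libraries, none of the 8 had an unadjusted p below 0.05 outside Dp16_2xIFNRs over Dp16, and neither DESeq2 nor limma called any of them. In the fit of all genes, where 0.0114% were called in Dp16_2xIFNRs over Dp16 and 0.732% in both duplication genotypes over WT (0.219% lower), Kcne2 and Slc4a5 were not called either. For the 7 genes outside the segment that passed, the median log2 fold change was -0.60 in Dp16_2xIFNRs over WT and 0.49 in Dp16 over WT.

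Within the pair of libraries that stood apart, Kcne2 had a larger ratio of Dp16 to WT signal than any of the 8 genes outside the segment, while the place of Clic6 depended on the baseline. The excess of a gene was its CPM less the median of the other 5 libraries of the genotype. For Ttr it was 341 CPM in Dp16 replicate 3 and 172 CPM in WT replicate 5, a ratio of 1.98. Over the 8 genes outside the segment this ratio ran from 1.26 in Aqp1 to 3.11 in Sostdc1, with a median of 2.00. Clic6 had an excess of 16.6 CPM in Dp16 replicate 3 and 5.28 CPM in WT replicate 5, a ratio of 3.14. Kcne2 had 4.70 CPM in Dp16 replicate 3 and 0.871 CPM in WT replicate 5, a ratio of 5.40. Relative to the median of the 8, these ratios were 1.57 for Clic6 and 2.70 for Kcne2. Each genotype contributes 1 library, so genotype and library cannot be told apart and no test was made.

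The ratio of Clic6, 3.14, was just above the 3.11 of Sostdc1. With the mean in place of the median as baseline it was 3.15, below the highest of the 8 at 3.63, and with no baseline it was 2.68, below the highest at 2.81. Of the other choroid plexus genes, 12 were at least 2 times a median above 0 in both members of the pair (Lmx1a, whose Dp16 median was 0, is left out), and their ratios ran from 0.820 in Calml4 to 3.46 in Steap1, with a median of 1.81. Kcne2, at 5.40, lay above all 8 genes outside the segment and above these 12. Of the listed genes that did not reach 2 times in both, Col8a1 had a ratio of 5.90, above Kcne2, and Slc2a12 one of 4.17. Counted against Slc4a5 in the same library, Kcne2 gave 1.04 counts per Slc4a5 count (95% exact interval 0.876 to 1.24) in Dp16 replicate 3 and 0.582 (0.396 to 0.848) in WT replicate 5. Against Ttr it gave 0.0136 (0.0120 to 0.0153) in Dp16 replicate 3 and 0.00534 (0.00391 to 0.00713) in WT replicate 5. Clic6 gave 0.0567 counts per Ttr count (0.0534 to 0.0602) in Dp16 replicate 3 and 0.0418 (0.0375 to 0.0464) in WT replicate 5, but against Slc4a5 it gave 4.34 (3.79 to 4.99) in Dp16 replicate 3 and 4.56 (3.56 to 5.89) in WT replicate 5, with overlapping intervals. These Clopper-Pearson intervals cover counting error only.

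**Figure D3:**
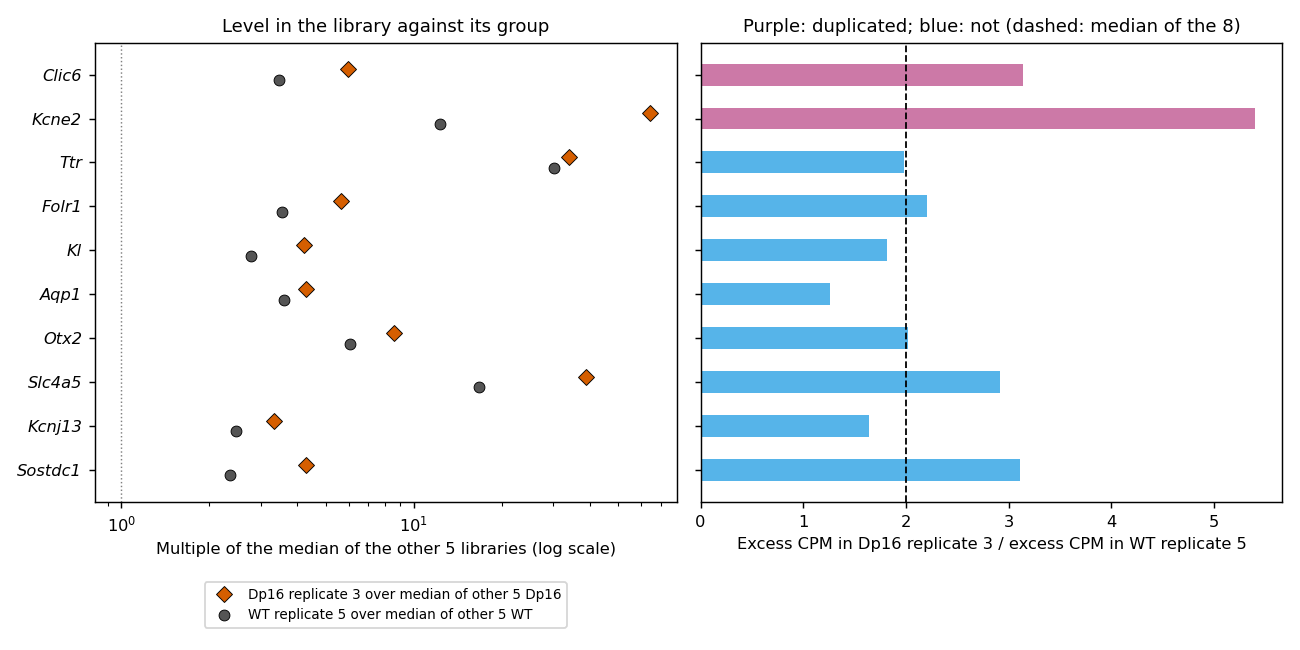
Left, level of each gene in Dp16 replicate 3 (diamonds) and WT replicate 5 (circles) as a multiple of the median of the other 5 libraries of the genotype, on a log axis. Right, excess CPM in Dp16 replicate 3 divided by that in WT replicate 5, at 3.14 for Clic6 and 5.40 for Kcne2 (purple), with the 8 genes outside the segment (blue) between 1.26 and 3.11.

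When the choroid plexus content of a library entered the model, the fold changes of each duplicated gene in the 2 genotypes came closer to each other, and none was called. With the Ttr level as a term, Clic6 had a log2 fold change of 0.60 (95% interval 0.01 to 1.19, adjusted p = 0.427) in Dp16_2xIFNRs over WT and 0.84 (0.26 to 1.41, adjusted p = 0.263) in Dp16 over WT. Kcne2 had 0.88 (-0.07 to 1.83, adjusted p = 0.687) in Dp16_2xIFNRs over WT and 0.73 (-0.09 to 1.54, adjusted p = 0.752) in Dp16 over WT. With the mean of the 23 tested genes among the other choroid plexus genes as the term, the values were lower. Clic6 then had 0.13 (-0.50 to 0.76) in Dp16_2xIFNRs over WT and 0.51 (-0.15 to 1.16) in Dp16 over WT, and Kcne2 had 0.01 (-0.46 to 0.49) in Dp16_2xIFNRs over WT and -0.07 (-0.89 to 0.76) in Dp16 over WT. The intervals of Clic6 in both fits, and of Kcne2 with the Ttr term, reach the log2 copy ratio of 0.58. Standard errors were taken from the fold change and the F statistic, which is unreliable where a fold change is small. For Kcne2 with the second term they were 0.231 in Dp16_2xIFNRs over WT, 0.402 in Dp16 over WT and 0.454 in both genotypes over WT. The last is larger than the others allow, so these Kcne2 intervals cannot be set against the copy ratio. The estimate for Kcne2 depended on which choroid plexus genes stood for the tissue.

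**Figure D4:**
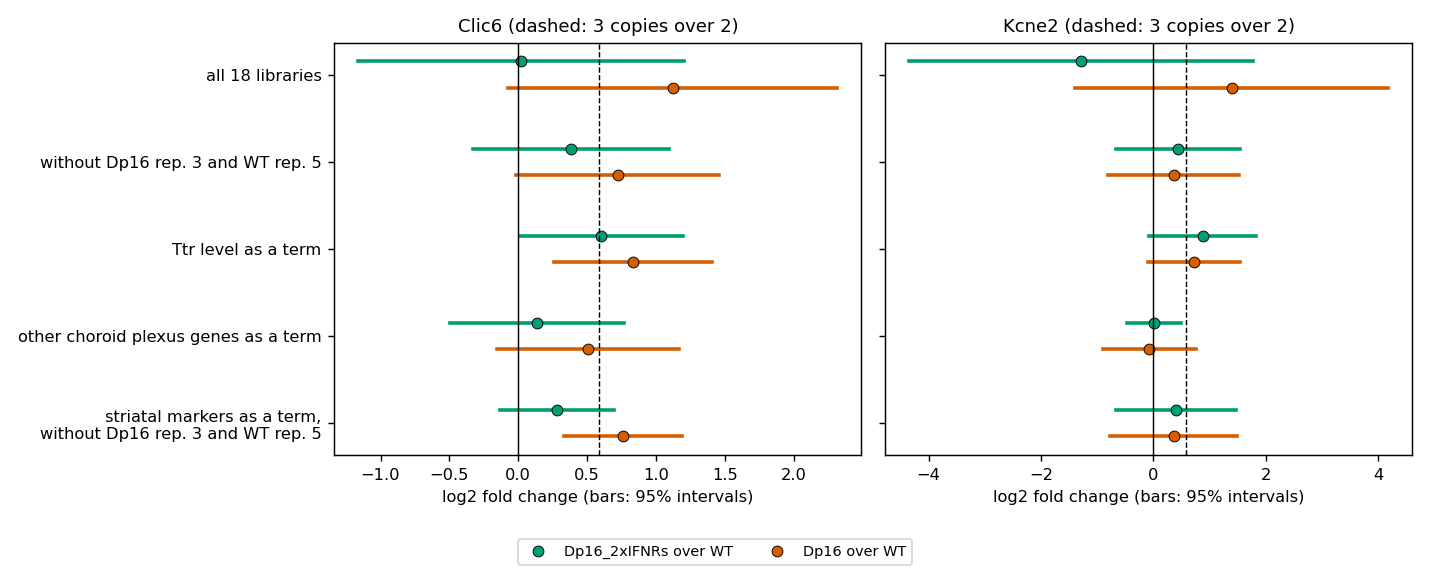
Log2 fold changes over WT of Clic6 (left) and Kcne2 (right) with 95% intervals, for Dp16_2xIFNRs (green) and Dp16 (orange), in 5 edgeR fits named on the axis. The dashed line marks the log2 copy ratio of 0.58, and intervals for Kcne2 in all 18 libraries span from -4.34 to 1.77 in Dp16_2xIFNRs and from -1.39 to 4.19 in Dp16.

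No difference between genotypes in the ratio of a duplicated gene to Ttr within a library passed the test. The log2 ratio of RPKM, with 0.1 added to both, averaged -2.37 ± 1.02 for Clic6 in Dp16_2xIFNRs, -3.04 ± 1.46 in Dp16 and -3.55 ± 1.82 in WT (SD, n = 6 each). The difference was 1.18 in Dp16_2xIFNRs over WT (two-sided exact permutation p = 0.197) and 0.51 in Dp16 over WT (exact permutation p = 0.602). For Kcne2 the mean log2 ratio was -4.88 ± 0.705 in Dp16_2xIFNRs, -5.63 ± 0.948 in Dp16 and -5.76 ± 1.80 in WT. The differences were 0.88 (exact permutation p = 0.288) in Dp16_2xIFNRs over WT and 0.13 (exact permutation p = 0.894) in Dp16 over WT. In Dp16_2xIFNRs over Dp16 they were 0.67 for Clic6 (exact permutation p = 0.411) and 0.74 for Kcne2 (exact permutation p = 0.169). Over these 6 tests the Benjamini-Hochberg adjusted p was at least 0.576. The ratio was not constant within a genotype: the log2 ratio of Clic6 was -5.78 in Dp16 replicate 3 and -6.17 in WT replicate 5, the lowest of all libraries.

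Clic6 also followed markers of a second neighbouring tissue. A list of 9 striatal markers, genes of the spiny projection neurons beneath the cortex such as Drd1, Adora2a and Ppp1r1b, varied widely within each genotype, with summed levels of 347 to 1323 CPM in Dp16_2xIFNRs, 357 to 1003 CPM in Dp16 and 377 to 1160 CPM in WT. Within genotypes, log2 CPM of Clic6 correlated with the mean log2 CPM of that list over 18 libraries (Pearson r = 0.73, permutation p = 0.00132, adjusted 0.00596, Spearman rho = 0.82, permutation p = 0.00015, adjusted 0.0037). The 2 libraries farthest from the median of the list were WT replicate 1 and Dp16_2xIFNRs replicate 4. Without them, r was 0.71 (permutation p = 0.0055, adjusted 0.055) and rho 0.72 (permutation p = 0.0044, adjusted 0.044). Dp16 replicate 3 and WT replicate 5, the pair high in choroid plexus RNA, stayed in both sets. No correlation with this list was made without that pair, so its part in the relation was not tested. Dp16_2xIFNRs replicate 5, the library with the highest striatal sum, had 325 counts of Clic6 and only 4 of Kcne2 and 235 of Ttr. Over the 18 libraries, Kcne2 had r = 0.44 and rho = 0.52 with the striatal list, with adjusted permutation p of 0.101 and 0.0591. The relation was not particular to Clic6. Ttr had r = 0.46 and rho = 0.61 (adjusted permutation p = 0.111 and 0.045). Slc4a5 had r = 0.51 and rho = 0.54 (adjusted permutation p = 0.0635 and 0.0591). Without the 2 farthest libraries, Ttr had r = 0.41 and rho = 0.39 (adjusted permutation p = 0.297 and 0.352). These were 30 relations, 10 genes against 3 lists, with permutation within genotypes. Adjustment was over the 30 relations in the 18 libraries and, separately, over the 30 without the 2 farthest libraries of each list.

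Taking out the striatal level narrowed the interval of Clic6, in a fit chosen after the data were seen. With the striatal markers as a term and without Dp16 replicate 3 and WT replicate 5, its log2 fold change was 0.28 (95% interval -0.13 to 0.69, adjusted p = 0.687) in Dp16_2xIFNRs over WT and 0.76 (0.33 to 1.19, adjusted p = 0.151) in Dp16 over WT in edgeR's quasi-likelihood test. Both intervals hold the log2 copy ratio of 0.58, and the lower bound in Dp16 is above 0, but neither value was called over all genes. Dp16_2xIFNRs over Dp16, in which the copy number of Clic6 is the same, gave -0.48 (-0.88 to -0.08, unadjusted p = 0.0214, adjusted p = 1.0). The part of striatal RNA in the levels of Clic6 was not tested beyond these fits.

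The other genes were set against the same lists. The list of other choroid plexus genes, of which the 23 tested were averaged, split the libraries into the pair and the rest. Correlations with that list over all 18 libraries thus rest in part on the pair. For Clic6 these were r = 0.82 and rho = 0.76 (adjusted permutation p = 0.00465 and 0.00882). In the 16 libraries other than the pair, Ttr (r = 0.82, rho = 0.79, adjusted permutation p = 0.0351 and 0.044) and Kl (r = 0.82, rho = 0.78, adjusted permutation p = 0.0174 and 0.044) followed that list within genotypes. Without the 2 farthest of these, WT replicates 2 and 6, r was 0.72 for Ttr and 0.68 for Kl, each with an adjusted permutation p of 0.056. In the 16 libraries other than the pair, Clic6 had r = 0.52 and rho = 0.59 (adjusted permutation p = 0.197 and 0.144). Kcnj13 was correlated with 11 meningeal markers at r = 0.67 and rho = 0.55 (adjusted permutation p = 0.087 and 0.0591). Without the 2 libraries farthest from the median, r was 0.21 and rho 0.37 (adjusted permutation p = 0.665 and 0.444). The Pearson value thus rested largely on those libraries, of which WT replicate 6 had the lowest meningeal sum, 42.5 CPM.

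**Figure D5:**
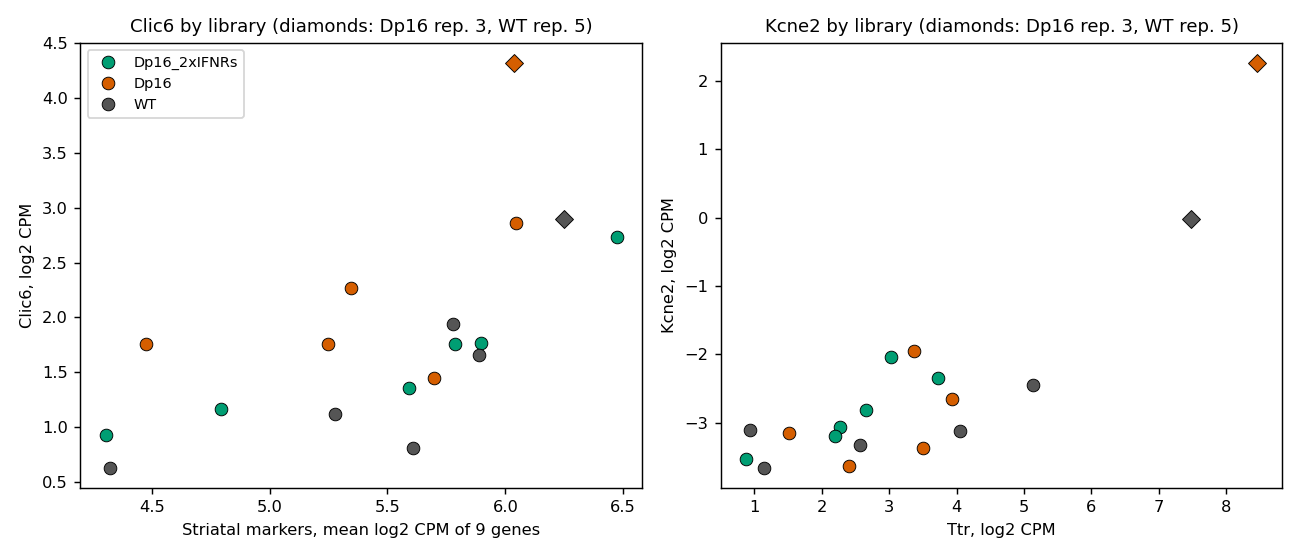
Left, log2 CPM of Clic6 against the mean log2 CPM of 9 striatal markers in each library. Right, log2 CPM of Kcne2 against that of Ttr, with Dp16 replicate 3 and WT replicate 5 as diamonds at the upper right, apart from the other 16 libraries.

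Likeness was measured as the Spearman correlation over the 18 libraries with the median profile of the 8 genes outside the segment. Of all other tested genes, the closest was Adamts9, a secreted metalloprotease, at 0.880, and at 0.871 over the 16 libraries other than the pair. It was followed by Klf16, Ccdc8, Ermap, 4933417O13Rik, Igsf1, Cdo1 and Cygb, between 0.853 and 0.829. Ranks do not measure the size of a rise. Adamts9 had 4.69 CPM in Dp16 replicate 3 and 4.80 CPM in WT replicate 5, against a mean of 3.56 CPM over all libraries. For Klf16 these values were 66.7, 73.8 and 60.8 CPM, and for Igsf1, which rose more, 7.02, 3.81 and 2.34 CPM. Of the duplicated genes, Clic6 reached 0.719 and Kcne2 0.505. The 8 genes that formed the profile ran from 0.292 for Folr1 to 0.825 for Sostdc1, so they did not vary as a single unit. Libraries share depth and tissue content, and these correlations are a description.

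Lists of related function gave no call among channel partners and transporters. Of 17 genes of the Clic and Kcne families and the channel partners of Kcne2, 14 were tested and none was called in Dp16_2xIFNRs or Dp16 over WT by edgeR, with an unadjusted p below 0.05 for 2 in Dp16_2xIFNRs and 3 in Dp16. Over all 18717 tested genes, 2158 in Dp16_2xIFNRs and 1655 in Dp16 had such a p. All 17 genes of cerebrospinal fluid secretion and transport were tested and none was called, nor had any an unadjusted p below 0.05 in these contrasts. Of the 28 other choroid plexus genes, 23 were tested and none was called in Dp16 over WT by edgeR, with an unadjusted p below 0.05 for 3.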

How the data were processed

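Counts and RPKM values of 18 mouse cortex libraries were used. The labels' protocols give TRIzol extraction, poly-A enrichment, a strand-specific kit and paired-end sequencing. HTSeq 0.6.1, HISAT2 2.1.0, FastQC 0.11.5, SAMtools 1.5, bcl2fastq and the build GRCm38 are named in the submitters' processing notes, without their roles. The authors deposited raw counts per gene without normalization. RPKM values deposited by the authors equalled the count over the library total and a single gene length for 31735 of 31735 genes compared, within a relative tolerance of 1e-06.

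Genes were filtered by group with a minimum count of 10, scaled by TMM and fitted over all 18 libraries on genotype and sex with edgeR 4.0.16 in R 4.3.3 (robust quasi-likelihood). P-values were adjusted by Benjamini-Hochberg over 18717 tested genes and called below 0.05. Kcne2 and Slc4a5 came from the same fit without the filter, over 35130 genes. CPM were computed from the counts with TMM-scaled library totals. The common biological coefficient of variation was 12.2%. Ratios to Ttr used 0.1 as pseudocount and exact permutation. Other fits used DESeq2 1.42.0, limma 3.58.1, other scalings and filters, added terms and left-out libraries. The edgeR steps were tested on simulated data. The 10 genes and all lists were chosen with earlier results of these data known. Named genes were the 10, all tested neighbours, up to 6 of each other list and the 8 genes most like the profile. The result of 1 gene of the other choroid plexus list is not reported here.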

Additional observations from a re-analysis of the deposited data

Results flagged for a closer look

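In groups of 6 libraries, a CPM was marked where its gap to the nearest other library, divided by the group's range, was above Dixon's 95% critical value of 0.625. Of 30 groups of the 10 genes, 18 values were marked, 9 of them Dp16 replicate 3 and 7 WT replicate 5. Chance marks about 1 in 20 groups, and the 10 genes are not independent of each other within a library. For Dp16 replicate 3, the highest of its group, the share was 0.738 for Clic6, 0.963 for Kcne2, 0.965 for Ttr, 0.796 for Folr1, 0.83 for Kl, 0.722 for Aqp1, 0.87 for Otx2, 0.938 for Slc4a5 and 0.831 for Sostdc1. For WT replicate 5, also the highest of its group, it was 0.886 for Kcne2, 0.811 for Ttr, 0.648 for Folr1, 0.749 for Kl, 0.726 for Aqp1, 0.683 for Otx2 and 0.884 for Slc4a5. Clic6 was marked in Dp16_2xIFNRs replicate 5, at 0.685, as the highest of its group, and Kcnj13 in Dp16_2xIFNRs replicate 6, at 0.686, as the lowest.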

How the results depend on the processing

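None of the 10 genes was called in any of 824 alternative fits over 36 other settings, and the smallest adjusted p was 0.115, for Kl in Dp16_2xIFNRs over WT with striatal and other choroid plexus terms. Values below are log2 differences, those of settings without the pair (Dp16 replicate 3 and WT replicate 5) or with a striatal term were chosen after seeing the data, and the causes of sign changes were not tested. Clic6 in Dp16_2xIFNRs over WT was -0.027 with limma-voom. Kcne2 in Dp16_2xIFNRs over WT was 0.35 with the sample identifier as a block, 0.52 with the 8 outside genes as a term, 0.013 with the other choroid plexus genes, 0.88 with Ttr, 0.44 without the pair, 0.41 with the striatal term without the pair and 0.025 with the striatal and choroid terms. Kcne2 in Dp16 over WT was -0.069 with the other choroid term and -0.019 with both terms. Kcne2 in Dp16_2xIFNRs over Dp16 was, in the same order from the 8 outside genes on, 0.34, 0.083, 0.15, 0.070, 0.041 and 0.044. Kcne2 in both duplication genotypes over WT was -0.028 with the other choroid term and -0.10 with DESeq2.

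Ttr in Dp16 over WT was -0.080 with the replicate block, -0.17 with the identifier block, -0.92 with the other choroid term, -0.48 without the pair, -0.38 with the striatal term without the pair and -0.86 with both terms. With the other choroid term and with both terms, Dp16 over WT was -0.26 and -0.26 for Kl, -0.20 and -0.33 for Aqp1, -0.22 and -0.17 for Otx2 and -0.035 and -0.054 for Sostdc1. Kl was -0.12 with the identifier block and Aqp1 -0.00358 with limma-voom. In Dp16_2xIFNRs over WT, the identifier block gave 0.11 for Otx2, 0.55 for Slc4a5 and 0.24 for Kcnj13, the Ttr term 0.57 for Slc4a5, 0.19 for Kcnj13 and 0.20 for Sostdc1, leaving out the pair 0.09 for Slc4a5 and 0.11 for Kcnj13, the striatal term without the pair 0.14 for Slc4a5 and 0.13 for Kcnj13, and limma on RPKM 0.013 for Kcnj13.

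With Folr1 in place of Ttr, the ratio of Clic6 was -0.28 in Dp16_2xIFNRs over WT and -0.77 over Dp16, and that of Kcne2 -0.59 over WT (exact permutation p = 0.0195) and -0.70 over Dp16. With the mean of the 8 outside genes, Dp16_2xIFNRs over Dp16 was -0.16 for Clic6 and -0.081 for Kcne2. The Kcne2 ratio in Dp16 over WT was -0.0075 with a pseudocount of 1 and -0.07 without the pair. Leaving out 1 library at a time gave, for Dp16_2xIFNRs over WT, Dp16 over WT, Dp16_2xIFNRs over Dp16 and both over WT, Clic6 values of -0.31 to 0.43, 0.38 to 1.48, -1.37 to -0.33 and 0.22 to 0.96, and Kcne2 values of -1.74 to 0.54, -1.02 to 3.07, -3.00 to 0.14 and -0.95 to 1.81. Dp16 over WT ran -1.95 to 1.79 for Ttr, -0.13 to 1.02 for Folr1, -0.37 to 0.72 for Kl, -0.38 to 0.88 for Aqp1, -0.65 to 1.27 for Otx2, -0.98 to 2.77 for Slc4a5 and -0.18 to 0.72 for Sostdc1, each lowest without Dp16 replicate 3 and highest without WT replicate 5, and Dp16_2xIFNRs over WT ran -2.10 to 0.19 for Slc4a5 and -0.40 to 0.13 for Kcnj13. Ratio differences to Ttr ran, for the first 3 of these, 0.65 to 1.62, -0.017 to 1.06 and 0.12 to 1.00 for Clic6, and 0.45 to 1.32, -0.29 to 0.58 and 0.50 to 1.05 for Kcne2, the last with exact permutation p = 0.0368 without Dp16 replicate 5. Called genes of all tested ranged over settings, in the same order of 4 comparisons, from 60 to 394, 33 to 247, 2 to 4 and 57 to 517, the lowest with the identifier block, and main counts were 196, 140, 4 and 269. Same-numbered libraries had correlated deviations in part (-0.18 to 0.43, 11 of 18 pairs over 0.1), not in every pair, so the numbers were not taken to pair samples. Some libraries of different genotypes, all 3 with replicate number 1 among them, also share a number in their sample identifier, whose meaning is not given in the sources used here and which is the identifier block above. With the replicate block Clic6 in Dp16 over WT was 0.94 (edgeR adjusted p = 0.439).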

Other observations

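The 57 tested genes that were highest in their group, and at least 2 times the median of the others, in both Dp16 replicate 3 and WT replicate 5 were not all choroid plexus genes. Among the others, picked after their values were seen and with no list tested, were Chat, choline acetyltransferase, at 4.57 CPM in Dp16 replicate 3 and 3.65 CPM in WT replicate 5, and Lhx8, a transcription factor, at 2.54 CPM in Dp16 replicate 3 and 1.63 CPM in WT replicate 5. No gene of the whole table was called for an interaction of genotype and sex, and the lowest unadjusted p among the 10 genes was 0.0208, for Kcne2 (edgeR adjusted p = 1). The unadjusted edgeR p was also below 0.05 for Folr1 (0.0326), Slc4a5 (0.0334) and Ttr (0.0426). Dp16 replicate 3 is from a male and WT replicate 5 from a female, and their part in these p-values was not tested.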
